A study of Mus musculus with 3 samples.

Results

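The 8 genes described here encode enzymes that make serine and glycine and pass their carbon to folate: Phgdh, Psat1 and Psph of serine synthesis, the serine hydroxymethyltransferases Shmt1 and Shmt2, and the folate enzymes Mthfd1, Mthfd2 and Mthfd1l. They were picked by symbol from the 33696 genes counted, and all 8 were found. They were chosen with their levels in plasma cells of these libraries known, so all values are a description. Spleen cells of mice were counted in 3 single-cell RNA libraries, 1 per group: MASH-Phe-free (Phe-free below), MASH (metabolic dysfunction-associated steatohepatitis) and Chow. The labels give the tissue and these treatment names, and the series title names phenylalanine. The diets, strain, age and number of the animals behind each spleen library, and whether they bore tumours, were not stated in the sources used here. For tumour RNA, the series text speaks of C3H mice on a high-fat and then a methionine- and choline-deficient diet, with HCA-1 liver cancer cells under the skin.

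Serine is made from a glycolytic intermediate: PHGDH oxidises 3-phosphoglycerate, PSAT1 adds the amino group and PSPH removes the phosphate. SHMT2 in mitochondria and SHMT1 in the cytosol convert serine to glycine and load a one-carbon unit on folate. In mitochondria MTHFD2 oxidises this unit and MTHFD1L releases it as formate, and in the cytosol MTHFD1 takes formate up for purine and thymidylate synthesis. Dividing lymphocytes are known to use this pathway for nucleotides, and the transcription factor ATF4 is known to drive several of its genes when amino acids are short.

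The libraries held 16778 barcodes in Phe-free, 19219 in MASH and 16495 in Chow, with 160115282, 152501471 and 138787602 unique molecular identifiers (UMIs). Pairs of libraries shared 72 to 102 barcodes. Cells were clustered without the 8 genes and named by markers, which gave 15 classes with at least 20 cells in each library. Plasma-like cells numbered 373, 249 and 292 in Phe-free, MASH and Chow, germinal centre-like cells 119, 95 and 85, and B-like cells 4230, 5788 and 5463. Levels are given in CPM, the UMIs of a gene for every 1000000 UMIs of a class in a library. Plasma-like cells carried their markers: Jchain, the joining chain of secreted antibody, stood at 37534, 35008 and 34633 CPM in plasma-like cells, against 10.7, 12.2 and 12.4 in B-like cells, and Sdc1 at 119.5, 123 and 86.1, against 1.59, 1.62 and 1.38. Intervals are 95% and cover counting error only, since each group had 1 library, and no difference between groups was tested. A higher level in a class is a higher share of its RNA, and levels are compared within a gene.

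The bases around the start of 5 genes, 250 before to 50 after, are shown because in plasma-like cells the interval of Phe-free lay above those of MASH and Chow for these genes. They are from RefSeq (GRCm38.p6, an older build than that of the counts), and capitals mark CCAAT boxes on either strand (CCAAT or ATTGG). For Psat1 the first of its listed starts is shown, and Shmt2 has no such box in this window.
Phgdh (chr3:98339920-98340219, minus strand): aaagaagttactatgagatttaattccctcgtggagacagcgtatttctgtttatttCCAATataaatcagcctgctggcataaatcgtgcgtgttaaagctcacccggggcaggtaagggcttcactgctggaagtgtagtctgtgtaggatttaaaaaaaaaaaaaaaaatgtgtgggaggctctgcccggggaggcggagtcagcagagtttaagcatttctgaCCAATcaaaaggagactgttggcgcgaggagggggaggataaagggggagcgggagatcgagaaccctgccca
Psat1 (chr19:15925010-15925309, minus strand): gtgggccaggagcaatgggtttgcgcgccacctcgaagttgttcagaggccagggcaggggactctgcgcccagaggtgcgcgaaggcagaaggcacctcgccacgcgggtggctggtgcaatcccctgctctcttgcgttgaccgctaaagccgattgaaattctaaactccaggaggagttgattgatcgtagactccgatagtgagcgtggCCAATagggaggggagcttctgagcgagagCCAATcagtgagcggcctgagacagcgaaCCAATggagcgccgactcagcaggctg
Psph (chr5:129787204-129787503, minus strand): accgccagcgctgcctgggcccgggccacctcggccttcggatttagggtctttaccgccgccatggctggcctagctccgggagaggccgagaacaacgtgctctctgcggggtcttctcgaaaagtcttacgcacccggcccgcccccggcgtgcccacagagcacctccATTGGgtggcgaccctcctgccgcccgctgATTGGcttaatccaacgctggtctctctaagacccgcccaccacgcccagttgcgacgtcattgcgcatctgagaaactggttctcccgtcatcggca
Shmt2 (chr10:127522395-127522694, minus strand): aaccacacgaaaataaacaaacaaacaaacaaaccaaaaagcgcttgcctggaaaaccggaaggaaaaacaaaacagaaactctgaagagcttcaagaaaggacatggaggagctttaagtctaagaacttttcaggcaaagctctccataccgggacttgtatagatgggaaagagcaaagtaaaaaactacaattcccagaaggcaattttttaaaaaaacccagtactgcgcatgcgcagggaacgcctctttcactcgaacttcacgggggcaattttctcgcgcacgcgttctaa
Mthfd2 (chr6:83317555-83317854, minus strand): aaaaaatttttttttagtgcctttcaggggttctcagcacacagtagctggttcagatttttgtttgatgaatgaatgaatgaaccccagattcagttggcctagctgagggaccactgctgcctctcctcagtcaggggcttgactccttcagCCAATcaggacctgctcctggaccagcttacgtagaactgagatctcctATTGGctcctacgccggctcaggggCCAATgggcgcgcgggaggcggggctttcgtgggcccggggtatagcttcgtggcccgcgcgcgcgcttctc
CCAAT boxes stood in 6 of the 9 windows of the 8 genes, against 37.4% of all 32851 windows of this length. The sequence TGATGNAA, the core of an element bound by ATF4 with C/EBP factors, was in 0 of 9 on both strands, against 3.97% of all windows. The E-box CACGTG, which reads alike on both strands, was also in 0 of 9, against 7.15%. A match describes letters only, and its absence from these windows says nothing of the factor.

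With all UMIs in the total, Phgdh and Psat1 were highest in germinal centre-like cells among the 15 classes. Plasma-like cells came next for Phgdh but not for Psat1 or Psph. Phgdh, the first enzyme of the route, stood at 170.2, 170.4 and 166 CPM in germinal centre-like cells of Phe-free, MASH and Chow. Plasma-like cells came next with 139.7, 93.6 and 95.2 CPM, below germinal centre-like cells in each library. This order depended on the total: immunoglobulin took 57.97, 61.38 and 57.62% of plasma-like UMIs, against 1.005, 1.259 and 1.293% in germinal centre-like cells. With immunoglobulin left out, as given further on, Phgdh in plasma-like cells lay above germinal centre-like cells in each library. With all UMIs, the range of plasma-like cells overlapped with plasmacytoid dendritic-like cells (61.7 to 129.9 CPM over the libraries) and early erythroid-like cells (74.2 to 107 CPM). T-like cells held 63.4 to 79.8 CPM, B-like cells 58.4 to 64.1 CPM and mature neutrophil-like cells 0.819 to 1.40 CPM. Psat1, the aminotransferase, stood at 98.6, 106 and 91.1 CPM in germinal centre-like cells. Early erythroid-like cells held 33.2 to 38.96 CPM of it, and plasma-like cells, at 19.1, 9.04 and 9.06 CPM, overlapped with B-like cells, at 14.1, 14.2 and 11.9 CPM. Psph, the phosphatase, was similar in NK-like (37.6 to 43.4 CPM), T-like (36.5 to 37.9 CPM) and germinal centre-like cells (30.7 to 43.9 CPM), whose ranges overlapped. With immunoglobulin left out, Psph in plasma-like cells stood at 57.6, 29.6 and 33.5 CPM in Phe-free, MASH and Chow. On that total, this range took in those of NK-like (37.6 to 43.4 CPM) and germinal centre-like cells (31.1 to 44.3 CPM).

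**Figure D1:**
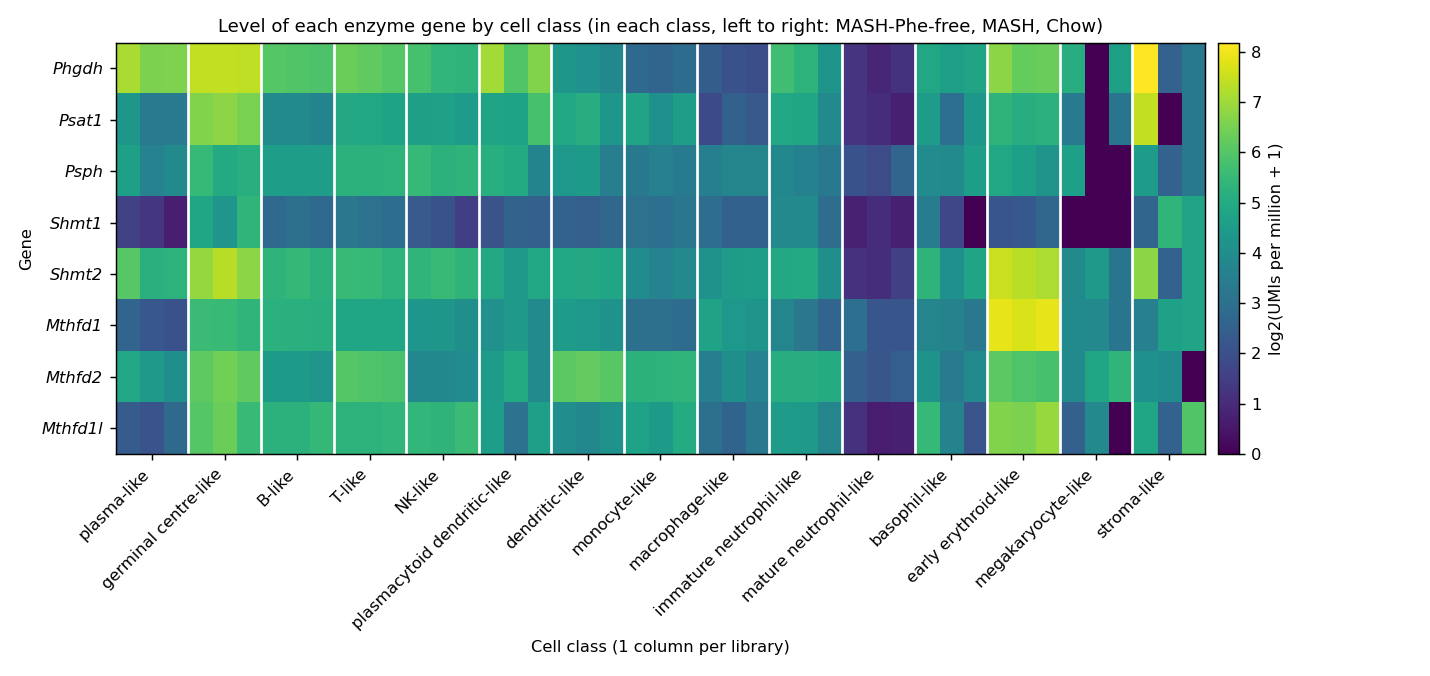
Colour gives the level, as log2(CPM + 1), of the 8 genes in 15 cell classes and 3 libraries, with MASH-Phe-free, MASH and Chow side by side. Germinal centre-like cells were high for Phgdh and Psat1 and early erythroid-like cells for Shmt2, Mthfd1 and Mthfd1l. With all UMIs in the total, plasma-like cells were high for Phgdh and low for Shmt1, Mthfd1 and Mthfd1l.

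The transferases and folate enzymes had other leading classes. Shmt2, the mitochondrial transferase, was highest in early erythroid-like (143 to 182 CPM) and germinal centre-like cells (106 to 157 CPM), which overlapped. Plasma-like cells held 65.6, 35.4 and 37.8 CPM, a range that took in those of T-like, NK-like and B-like cells. Shmt1, its cytosolic form, stood at 27.1, 18.3 and 39.7 CPM in germinal centre-like cells, where 1 cell held 23, 13 and 21 of its 55, 28 and 44 UMIs in Phe-free, MASH and Chow. In plasma-like cells it stood at 2.04, 1.43 and 0.604 CPM, overlapping with mature neutrophil-like cells (0.638 to 1.09 CPM). Mthfd1 was set apart in early erythroid-like cells, at 208 to 234 CPM, with germinal centre-like cells next at 39.7 to 46.4 CPM. With all UMIs in the total, plasma-like cells had the lowest mean of the 15 classes for Mthfd1, at 5.32, 3.65 and 3.17 CPM. They overlapped with mature neutrophil-like cells (3.51 to 7.01 CPM). Mthfd1l was likewise highest in early erythroid-like cells (94.5 to 119 CPM) and stood at 4.19, 3.33 and 6.04 CPM in plasma-like cells. Mthfd2 ran through germinal centre-like (70.5 to 86.2 CPM), dendritic-like (65.9 to 73.5 CPM), early erythroid-like (54.1 to 68.6 CPM) and T-like cells (56.3 to 64.6 CPM), each overlapping with the next. Stroma-like cells are left out of this order, since all 54 Phgdh UMIs of the 20 such cells in Phe-free were in 2 cells.

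Within plasma-like cells, Phe-free was the high library for serine synthesis. Phgdh had 1235, 590 and 630 UMIs in Phe-free, MASH and Chow, or 139.7 (132 to 148), 93.6 (86.2 to 102) and 95.2 (87.9 to 103) CPM. Psat1 had 169, 57 and 60 UMIs, or 19.1 (16.4 to 22.2), 9.04 (6.85 to 11.7) and 9.06 (6.92 to 11.7) CPM. Psph had 214, 72 and 94 UMIs, or 24.2 (21.1 to 27.7), 11.4 (8.94 to 14.4) and 14.2 (11.5 to 17.4) CPM. For each of the 3 genes the interval of Phe-free lay above those of MASH and Chow, which overlapped. The ratios of Phe-free over MASH were 1.49 (1.35 to 1.65) for Phgdh, 2.11 (1.56 to 2.91) for Psat1 and 2.12 (1.61 to 2.81) for Psph. Over Chow they were 1.47 (1.33 to 1.62), 2.11 (1.56 to 2.88) and 1.71 (1.33 to 2.20), in the same order.

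Mitochondrial Shmt2 and Mthfd2 had the same high library. Shmt2 had 580, 223 and 250 UMIs in Phe-free, MASH and Chow, or 65.6 (60.4 to 71.2), 35.4 (30.9 to 40.4) and 37.8 (33.2 to 42.8) CPM, with ratios of 1.85 (1.59 to 2.17) over MASH and 1.74 (1.495 to 2.02) over Chow. Mthfd2 had 252, 126 and 106 UMIs, or 28.5 (25.1 to 32.3), 19.99 (16.7 to 23.8) and 16.01 (13.1 to 19.4) CPM, with ratios of 1.43 (1.15 to 1.78) and 1.78 (1.41 to 2.26). For both genes the interval of Phe-free lay above the others, and MASH and Chow overlapped. Mthfd1l, the formate-releasing enzyme, had 37, 21 and 40 UMIs, or 4.19 (2.95 to 5.77), 3.33 (2.06 to 5.09) and 6.04 (4.32 to 8.23) CPM, and was highest in Chow. The cytosolic enzymes rested on few UMIs: Mthfd1 had 47, 23 and 21 and Shmt1 18, 9 and 4. Their ratios of Phe-free over MASH, 1.46 (0.867 to 2.51) and 1.43 (0.608 to 3.60), had intervals that included 1.

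**Figure D2:**
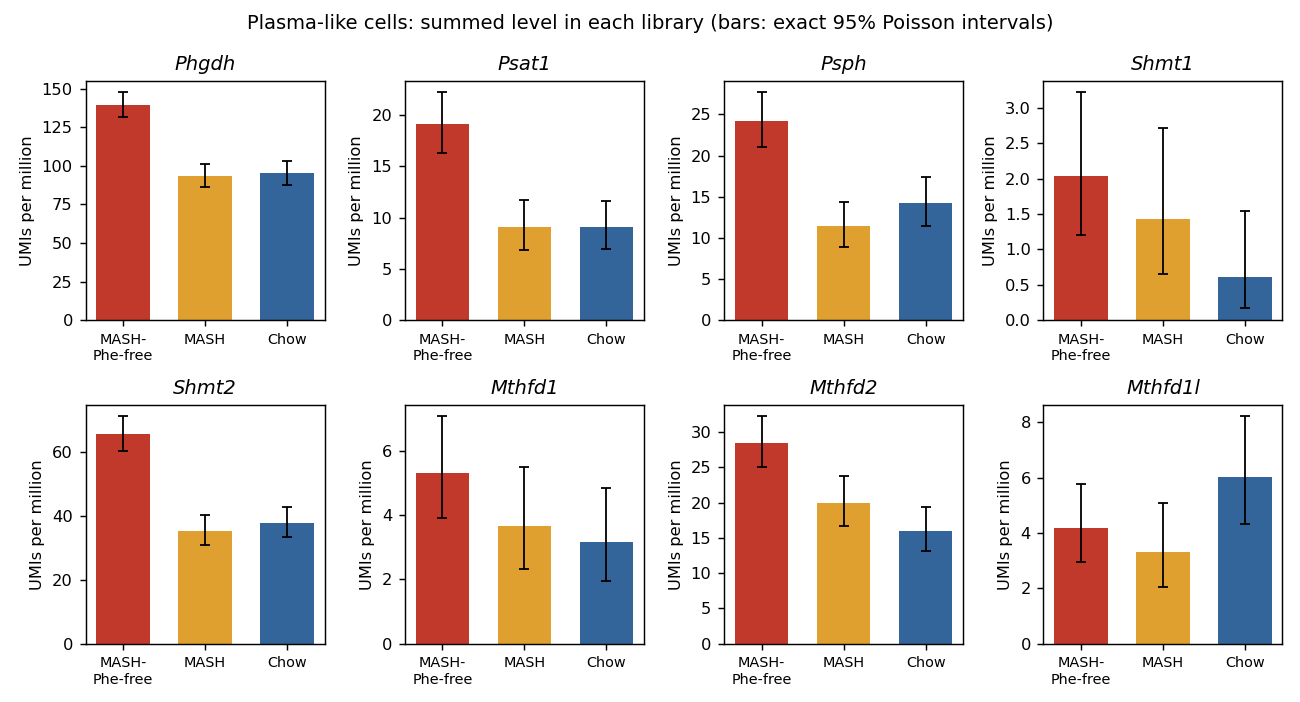
Level of each gene in plasma-like cells, in CPM, in MASH-Phe-free, MASH and Chow (1 library each), with exact 95% Poisson intervals. Phgdh, Psat1, Psph, Shmt2 and Mthfd2 were highest in MASH-Phe-free, and Mthfd1l in Chow.

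Of the 8 genes, 3 (Psat1, Psph and Shmt2) were at least 1.5-fold higher in Phe-free than in MASH, where 11.2% of the 10545 genes with at least 20 UMIs were. Phgdh, at 1.49, lay just under the limit. The median ratio was 1.48, against 1.07 over all genes. Over Chow 6 of 8 were at least 1.5-fold higher, where 5.97% of 10694 genes were, with medians of 1.72 and 0.936. Nothing is read from these counts, since the genes were chosen with these values known. Between MASH and Chow 7 genes had enough UMIs, and Mthfd1l alone was past 1.5-fold, lower in MASH at 0.551 (0.309 to 0.958), where 15.8% of 10339 genes were lower. With each cell weighted alike that ratio was 1.26. The median of MASH over Chow was 0.984, and scaling by medians of ratios in place of totals would shift all log2 ratios by 0.19 here, by -0.09 for Phe-free over MASH and by 0.10 for Phe-free over Chow.

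The levels in plasma-like cells were also taken apart by cell. The cell with most Phgdh UMIs held 62, 23 and 17 of them in Phe-free, MASH and Chow, and 68.9, 62.2 and 61.6% of cells had at least 1. With each cell thinned to 2000 UMIs, which left 358, 232 and 262 cells, the shares with Phgdh were 20.4% (16.3 to 24.9), 11.6% (7.81 to 16.5) and 17.9% (13.5 to 23.1). On this measure the interval of Phe-free overlapped with that of Chow and, at its lower end, with that of MASH. In mature neutrophil-like cells at the same depth, taken as background, the shares were 0.0892, 0.261 and 0.313%. For Psat1, Psph and Mthfd2 the thinned shares of plasma-like cells in Phe-free were 5.3, 5.6 and 6.1%, the highest of the libraries. Their intervals overlapped with those of Chow, and for Psat1 and Psph also with those of MASH.

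Cells carrying at least 3 of 12 cell cycle genes made up 7.24, 6.43 and 4.11% of plasma-like cells in Phe-free, MASH and Chow, or 27, 16 and 12 cells, and 26, 14 and 11 more carried exactly 2. They are called cycling by this count alone, taken at full depth: their median was 38748, 13232 and 17949 UMIs, against 16122, 20352 and 19372 in the others. Phgdh stood at 253, 137 and 157 CPM in cycling cells, against 125, 90.8 and 91.9 CPM in the others. Shmt2 stood at 134, 54.3 and 96.8 CPM, against 56.9, 34.1 and 34.7 CPM, and Psat1 at 66.3, 10.3 and 33.3 CPM, against 13.03, 8.96 and 7.79 CPM. Mthfd2 stood at 36.6, 7.76 and 33.3 CPM, against 27.5, 20.8 and 15.1 CPM, and was lower in cycling cells in MASH. At least 2-fold higher in cycling cells were 6, 0 and 5 of 7 measured genes, where 45%, 20.7% and 34.5% of all genes were. Immunoglobulin took 28.2, 47.8 and 29.3% of UMIs in cycling cells, against 61.8, 62.3 and 59.1% in the others. With it left out Phgdh stood at 353, 263 and 223 CPM, against 328, 241 and 225 CPM, close together in each library. On that total Psat1 was higher in cycling cells of Phe-free and Chow, and lower in those of MASH. Among cells that were not cycling, Phe-free was also the high library for the 5 genes. Its ratios over MASH there were 1.38 (1.24 to 1.53) for Phgdh, 1.45 (1.03 to 2.07) for Psat1, 1.89 (1.41 to 2.57) for Psph, 1.67 (1.41 to 1.98) for Shmt2 and 1.32 (1.05 to 1.66) for Mthfd2. Of these, Psph and Shmt2 were past 1.5-fold, where 6.93% of all genes were higher. Over Chow the ratios were 1.36 (1.23 to 1.51) for Phgdh, 1.67 (1.18 to 2.40) for Psat1, 1.61 (1.22 to 2.13) for Psph, 1.64 (1.39 to 1.94) for Shmt2 and 1.82 (1.42 to 2.34) for Mthfd2.

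Immunoglobulin genes took 57.97, 61.4 and 57.6% of plasma-like UMIs in Phe-free, MASH and Chow. With these UMIs left out of the total, levels in CPM were 332, 242 and 225 for Phgdh, 45.5, 23.4 and 21.4 for Psat1, 57.6, 29.6 and 33.5 for Psph, 156, 91.6 and 89.1 for Shmt2 and 67.8, 51.8 and 37.8 for Mthfd2, with Phe-free highest for each. The class divided into 8 parts, and Phgdh, Psat1, Psph, Shmt2 and Mthfd2 were each higher in Phe-free than in MASH in 7 of the 8, not always the same ones. Phgdh was higher than in Chow in 7 parts, Psat1 in 8 and Shmt2 in 6. Parts of the same libraries are not replicates, and some rested on few UMIs: Psat1 had 1 to 20 UMIs per part in MASH. Cells led by IgM heavy chain numbered 332, 238 and 271, and in them Phgdh stood at 142, 92.3 and 98.97 CPM and Shmt2 at 67.7, 34.6 and 38.95 CPM. Markers of B-like cells summed to 1254, 1295 and 1470.2 CPM in plasma-like cells of Phe-free, MASH and Chow and those of T-like cells to 95.4, 83.3 and 82.5 CPM, with 0 of 10 markers at 0 in each list. Other lists varied more: those of late erythroid-like cells summed to 414, 621 and 1025 CPM (0 of 10 at 0 in each library). Monocyte-like markers summed to 1727, 2236 and 1297 CPM (3, 2 and 1 of 11 at 0). Their median was 0.226, 0.317 and 0.755 CPM, so the sum came from a minority of the list and most of its markers were near 0. Macrophage-like markers summed to 36.9, 29.2 and 69.3 CPM (0 of 11 at 0). Immature neutrophil-like markers summed to 18.4, 4.44 and 20.2 CPM (2, 3 and 0 of 10 at 0) and mature neutrophil-like markers to 32.4, 7.46 and 27.04 CPM (2, 6 and 4 of 10 at 0), lowest in MASH for both. RNA of 10 pancreatic enzyme genes stood at 0.113, 0 and 9.67 CPM in plasma-like and 0.851, 0.977 and 15.2 CPM in B-like cells, highest in Chow. The part of these lists in the levels was not tested.

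In B-like, T-like and germinal centre-like cells none of the 8 genes was 1.5-fold apart between Phe-free and MASH. In B-like cells Phgdh stood at 64.1, 60.7 and 58.4 CPM in Phe-free, MASH and Chow, and Shmt2 at 39.2, 42.6 and 37.2 CPM. Phe-free over MASH was 1.06 (1 to 1.12) for Phgdh and 0.921 (0.859 to 0.986) for Shmt2. In B-like cells 0 of the 8 genes were 1.5-fold apart in Phe-free over MASH, Phe-free over Chow or MASH over Chow, where 8.29%, 10.5% and 10.3% of all genes were. In T-like cells it was also 0 of 8, where 8.47%, 10.4% and 9.73% were. Phgdh in T-like cells stood at 79.8, 72.3 and 63.4 CPM, with Phe-free over Chow at 1.26 (1.18 to 1.34). In germinal centre-like cells 0 of 8 passed in Phe-free over MASH, where 15.6% of all genes did, and Shmt2 was lower in Phe-free than in MASH at 0.752 (0.626 to 0.904). Median ratios of Phe-free over MASH were 0.963 in germinal centre-like, 0.992 in B-like and 1.04 in T-like cells. Whether the plasma-like ratios differ from these was not tested.

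**Figure D3:**
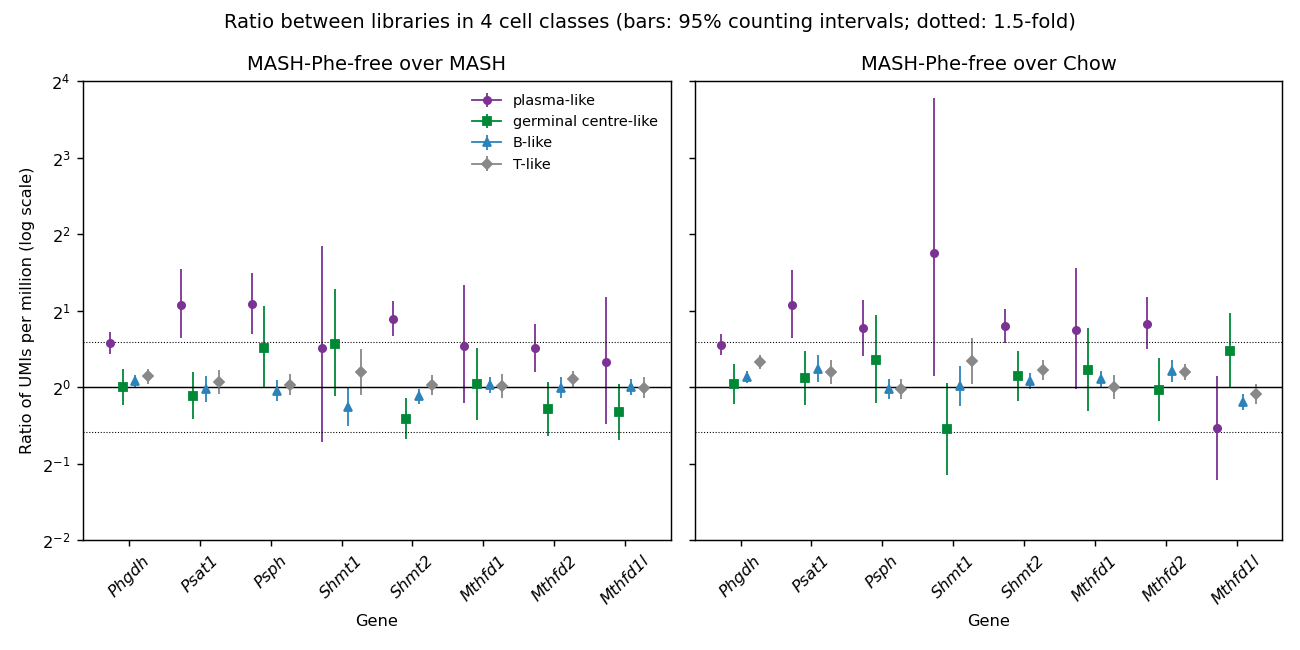
Ratios of MASH-Phe-free over MASH and over Chow (log axis) for the 8 genes in 4 cell classes, with 95% counting intervals. Plasma-like cells lay above the other classes for Psat1, Psph and Shmt2, with ratios over MASH of 2.11, 2.12 and 1.85.

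Plasma-like cells were next set against the B-like cells of the same library. Phgdh was higher in plasma-like cells, with ratios of 2.18 (2.03 to 2.34), 1.54 (1.41 to 1.69) and 1.63 (1.49 to 1.78) in Phe-free, MASH and Chow. Mthfd1 was lower, with ratios of 0.147 (0.107 to 0.197), 0.103 (0.0653 to 0.155) and 0.0944 (0.0582 to 0.145). Mthfd1l and Shmt1 were also lower, at 0.112, 0.0888 and 0.141 for Mthfd1l and 0.339, 0.199 and 0.102 for Shmt1. At least 2-fold higher were 1, 0 and 0 of the 8 genes, where 6.62%, 5.9% and 6.77% of all genes were. At least 2-fold lower were 3, 4 and 3, where 69%, 73% and 68.2% of all genes were.

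Leaving immunoglobulin out of the total gave higher ratios for each gene, and turned the direction for Psat1, Psph and Mthfd2 in MASH and Chow and for Shmt2 in MASH. With immunoglobulin UMIs left out of it, the ratios of plasma-like over B-like cells were 5.11, 3.94 and 3.80 for Phgdh, and 3.92, 2.12 and 2.37 for Shmt2, against 1.67, 0.831 and 1.02 with all UMIs. Mthfd2 stood at 3.17, 2.41 and 2.04, against 1.35, 0.944 and 0.878, and Psat1 at 3.19, 1.62 and 1.77, against 1.36, 0.636 and 0.762. Psph stood at 2.54, 1.27 and 1.46, against 1.09, 0.497 and 0.627. Mthfd1 and Mthfd1l stayed lower in plasma-like cells, at 0.345, 0.264 and 0.220 and at 0.262, 0.227 and 0.329. On this total 5, 3 and 3 of 8 were at least 2-fold higher, where 14.4%, 14.6% and 15.1% of all genes were.

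**Figure D4:**
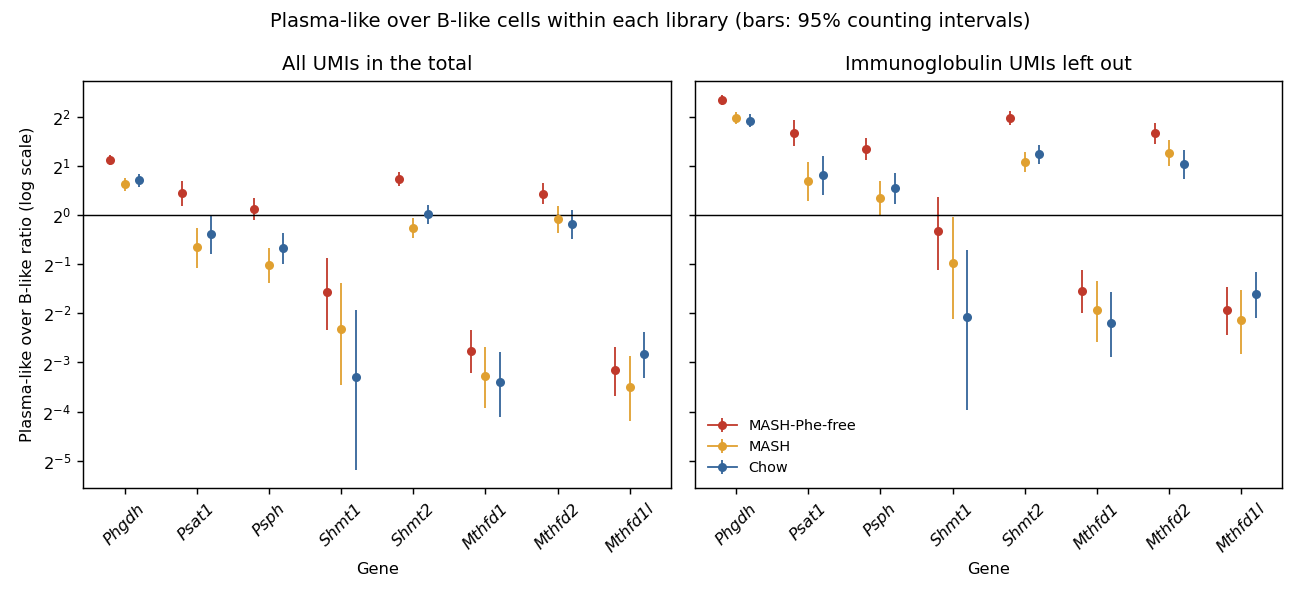
Ratios of plasma-like over B-like levels (log axis) for the 8 genes in each library, with all UMIs in the total and with immunoglobulin UMIs left out, and 95% counting intervals. All 8 genes moved up when immunoglobulin was left out. Phgdh lay above 1 and Shmt1, Mthfd1 and Mthfd1l below 1 on both totals. Psat1, Psph, Shmt2 and Mthfd2 lay above 1 in each library only with immunoglobulin left out.

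Germinal centre-like cells, in which B cells divide and mutate their antibody genes, had ratios over B-like cells above 1 for all 8 genes in each library. Psat1 had the highest, at 7.02 (5.93 to 8.29), 7.49 (6.27 to 8.89) and 7.66 (6.13 to 9.48) in Phe-free, MASH and Chow. Shmt2 stood at 3.01, 3.68 and 2.86 and Mthfd2 at 3.35, 4.07 and 3.95. The interval included 1 for Mthfd1 in MASH and Chow, for Psph in MASH and for Mthfd1l in Chow. At least 2-fold higher were 5, 6 and 5 of 8, where 11.9%, 11.8% and 12.7% of all genes were. Cycling cells made up 62.2, 65.3 and 50.6% of the class. In the other germinal centre-like cells Phgdh stood at 59.9, 61.9 and 63.9 CPM, close to the level of B-like cells, and without cycling cells in either class the ratio for Mthfd2 was 0.64 in MASH and 0.96 in Chow, and that for Shmt2 0.671 in MASH.

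In B-like and T-like cells each of the 8 genes was higher in cycling cells in each library. At least 2-fold higher were 5, 7 and 6 of 8 in B-like cells, where 12.1%, 11.6% and 13.8% of all genes were, and 4, 3 and 4 of 8 in T-like cells, where 10.9%, 11.4% and 11.3% were. Phgdh stood at 194, 212 and 250.1 CPM in cycling B-like cells of Phe-free, MASH and Chow, against 56.8, 53.2 and 53.8 CPM in the others. Psat1 stood at 91.8, 80.02 and 66.2 CPM, against 9.65, 10.9 and 10.6 CPM, and Shmt1 at 29.7, 49.7 and 45.05 CPM, against 4.68, 5.06 and 5.02 CPM. For all 3 genes the lowest of the cycling groups lay above the highest of the others. In T-like cells the ratio of cycling over other cells was 3.18, 3.15 and 3.53 for Phgdh, 4.72, 4.17 and 4.65 for Psat1 and 1.43, 1.63 and 1.45 for Shmt2. Cycling cells were deeper: their median was 14253, 10025 and 11147 UMIs in B-like cells, against 7506, 7694 and 7973 in the others.

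Immature neutrophil-like cells, the precursors of neutrophils, held Phgdh in a few early clusters. Over the whole class Phgdh stood at 49.5, 37.7 and 17.7 CPM in Phe-free, MASH and Chow, with ratios over Chow of 2.79 (2.39 to 3.28) for Phe-free and 2.13 (1.63 to 2.75) for MASH. Clusters led by Mpo and Elane, enzymes of early neutrophil granules, held 99, 11 and 21 of the 847, 87 and 475 cells, the smallest share being that of Chow. In these clusters, taken apart after the values were seen, Phgdh stood at 216, 179 and 152 CPM on 982, 86 and 162 UMIs, with ratios over Chow of 1.43 (1.21 to 1.69) for Phe-free and 1.18 (0.898 to 1.54) for MASH. In the other clusters it stood at 1.83, 1.08 and 2.72 CPM on 29, 2 and 26 UMIs, with ratios of 0.670 (0.381 to 1.19) and 0.396 (0.0455 to 1.58). Apart from Phe-free in the early clusters, these intervals included 1. At least 1.5-fold higher than in Chow over the whole class were 6 of 8 genes in Phe-free and 6 in MASH, where 18.5% and 14.7% of all genes were. By cycle genes, Phgdh stood at 81.3, 73.1 and 37.8 CPM in cycling cells, against 1.96, 0 and 2.79 CPM in the others, where the 0 UMIs of MASH allow up to 2.65 CPM (3 UMIs). Cycling cells made up 41.3, 33.3 and 26.1% of the class, and the part of this share in the other genes' ratios was not tested.

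**Figure D5:**
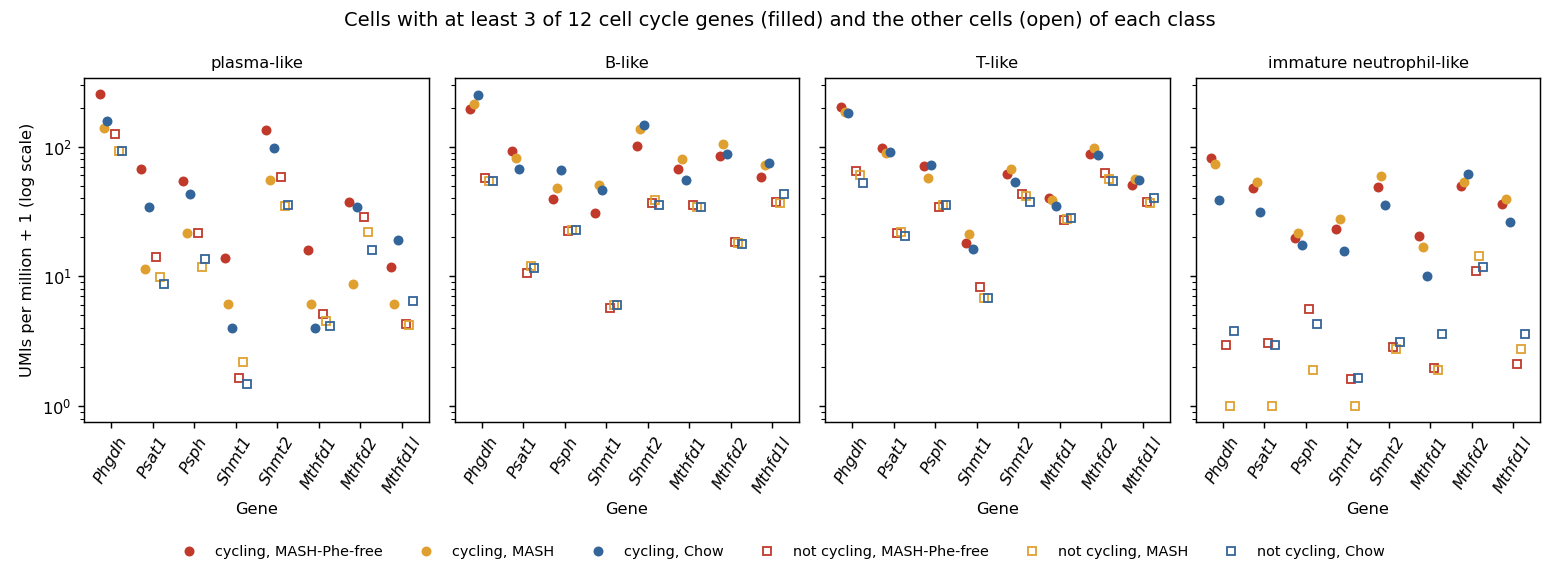
Level of the 8 genes, as CPM plus 1 on a log axis, in cells with at least 3 of 12 cell cycle genes (filled points) and in the other cells (open points) of plasma-like, B-like, T-like and immature neutrophil-like cells, by library. Cycling B-like and T-like cells lay higher for Phgdh and Psat1, and immature neutrophil-like cells that were not cycling lay near the bottom for most genes; cycling plasma-like cells numbered 27, 16 and 12.

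Genes around the pathway were read from lists in plasma-like cells. Of 12 measured genes of purine synthesis, 2 were at least 1.5-fold higher in Phe-free than in MASH (median ratio 1.20, against 1.07 over all genes), near the 11.2% of all genes that were: Pfas, at 3.96 and 1.90 CPM, and Impdh2, at 19.4 and 12.7 CPM. Of 7 genes of thymidylate and deoxynucleotide supply, 4 were at least 1.5-fold higher than in MASH and 3 than in Chow, where 11.2% and 5.97% of all genes were (median ratios 1.65 and 1.498). The share of cycling cells given above was also highest in Phe-free. Its intervals overlapped, at 4.82 to 10.4% in Phe-free, 3.72 to 10.2% in MASH and 2.14 to 7.07% in Chow. The part of this share in these counts was not tested. Rrm2, a subunit of ribonucleotide reductase, stood at 18.3, 5.87 and 11.03 CPM in Phe-free, MASH and Chow, and Dut, which breaks down dUTP, at 22.5, 10.8 and 11.3 CPM. Of 13 measured folate enzymes and transporters, 3 were at least 1.5-fold higher and 1 lower in Phe-free than in MASH, where 11.2% of all genes were higher and 5.21% lower, with a median ratio of 1.14. Tyms, thymidylate synthase, stood at 10.3, 3.65 and 7.55 CPM in Phe-free, MASH and Chow, with MASH lowest.

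Of 7 measured serine and glycine transporters, 2 were at least 1.5-fold higher in Phe-free than in MASH, where 11.2% of all genes were. The intervals of the 2 included 1, and the median ratio of the 7 was 1.33, against 1.07 over all genes. In Phe-free over Chow 2 of the 7 were at least 1.5-fold higher, where 5.97% of all genes were. The median ratio there was 1.08, against 0.936 over all genes. Sfxn1, the mitochondrial serine carrier, stood at 36.7, 26.7 and 28.1 CPM in Phe-free, MASH and Chow. Its ratio over MASH was 1.38 (1.14 to 1.67), under the 1.5-fold limit. Of 7 genes of the methionine cycle, 1 was at least 1.5-fold higher in Phe-free than in MASH, where 11.2% of all genes were. This was Ahcy, which breaks down S-adenosylhomocysteine, at 13.01 CPM in Phe-free and 8.09 CPM in MASH. The median ratio of the methionine cycle genes was 1.14. Of 9 genes that use serine or glycine, 2 were at least 1.5-fold higher and 0 lower in Phe-free than in MASH. Of all genes, 11.2% were higher and 5.21% lower. The intervals of the 2 included 1, and the median ratio of the 9 was 0.976. Of the same genes, 2 were at least 1.5-fold lower in Phe-free than in Chow (median ratio 0.781, against 0.936 over all genes), where 11.1% of all genes were, among them Srr, serine racemase, with 5.88, 3.81 and 10.7 CPM in Phe-free, MASH and Chow. Of the glycine cleavage system 2 of 4 genes were measured, and 0 were past 1.5-fold in Phe-free over MASH. For all genes the shares there were 11.2% higher and 5.21% lower.

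Of 12 measured regulators and partners of the response to amino acid shortage, 0 were at least 1.5-fold higher and 1 lower in Phe-free than in MASH. Of all genes, 11.2% were higher and 5.21% lower. The median ratio of the 12 was 1.04, against 1.07 over all genes. Atf4 stood at 99.6, 100.3 and 103 CPM in Phe-free, MASH and Chow. Asns, asparagine synthetase, stood at 33.7, 24.6 and 25.4 CPM and Slc7a5, a carrier of large neutral amino acids, at 57.6, 40.8 and 35.96 CPM, with Phe-free highest for both. Chac1, which degrades glutathione, stood at 11.4, 17.3 and 9.67 CPM, with MASH highest.

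Over the 45 sums of 15 classes and 3 libraries, the members were correlated with one another to different degrees. Pearson's r of log2(CPM + 10) was positive for each pair of members. It ran from 0.172 for Phgdh with Shmt1 to 0.793 for Phgdh with Shmt2, and was 0.771 for Phgdh with Psat1. These values are a description, since these sums share libraries and depth. The genes most like Phgdh were Shmt2 (0.793), Galk1 and Psat1, among 8833 compared. For Psat1 they were Hmga1 (0.858), Rbm3 and Nup37, and for Psph Cnot10 (0.808), Foxp4 and Haus3. For Shmt2 they were Nme1 (0.920), Rfc3 and Dpy30, and for Shmt1 Rev1 (0.796), Rnf121 and Map1s. For Mthfd2 they were Lsm4 (0.725), Atp5k and Hmga1, and for Mthfd1l Fmc1 (0.902), Sf3b4 and Ddx39a. Those of Mthfd1 included Bola3 (0.928) and Ifrd2.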

How the data were processed

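PolyA RNA of spleen cells was measured in 3 libraries, 1 per group, with a Chromium 5′ kit (v2) and paired-end Illumina sequencing, per the labels' protocols. The deposited tables hold a UMI count for each gene in each barcode, per the file headers, as whole numbers with no normalization. Cell Ranger 9.0.1, Seurat 5.3.0 and GRCm39/mm39 are named per the submitters' processing notes. The role of Seurat and the annotation release are not given in the sources used here. No deposited barcode held under 500 UMIs.

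Barcodes under 300 genes or 500 UMIs, or with over 10% of UMIs from mitochondrial genes, were dropped, which left those analysed (15864, 17651 and 15984 in Phe-free, MASH and Chow). Scrublet (scanpy 1.11.5) removed 285, 321 and 337 as doublets. Leiden clustering (leidenalg 0.10.2, resolution 1.0, 2000 variable genes without the members and pathway lists, 30 components, 15 neighbours) gave 105 clusters after ambiguous ones were divided. A cluster was named where its 5 leading markers of a type averaged a log2 fold of at least 1.5, and left unnamed where none of its markers was among its leading genes (12 clusters), pancreatic enzyme genes led (3, mostly in Chow) or another type's markers led (1). Parts of B-like and plasma-like clusters led by such genes, 193, 260 and 458 cells in Phe-free, MASH and Chow, were left out as mixed. Counts were summed by class and library. Ratios have exact conditional Poisson 95% intervals and shares Clopper-Pearson intervals. Plasma-like sums held 8838591, 6301718 and 6619311 UMIs in Phe-free, MASH and Chow, which limits genes with few UMIs. The ratio code was tested on simulated data.

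Groups had a single library each and were compared without a test. The members, lists and markers were chosen with earlier results of these data known. Genes from lists were named where their ratio was among the 3 farthest from 1 with an interval that excluded 1. Atf4 was named after its values were seen, and some genes that the rules name are not reported here. Results were recomputed under 11 other settings and 3 more chosen after seeing the data, as were leaving 1 cell out of ratios of opposite direction and taking immature neutrophil-like clusters apart. Python 3.11.15, numpy 2.4.6, scipy 1.17.1 and pandas 2.3.3 were used.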

Additional observations from a re-analysis of the deposited data

Results flagged for a closer look

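Some ratios between libraries ran in opposite directions in different classes, each past 1.5-fold with an interval that excluded 1. These differences were not tested, since each group had 1 library. For Mthfd1l, MASH over Chow was 0.551 in plasma-like and 0.610 in macrophage-like cells, but 1.73 in germinal centre-like and 1.68 in immature neutrophil-like cells. For Psat1, Phe-free over MASH was 2.11 in plasma-like and 1.65 in monocyte-like cells, but 0.533 in macrophage-like cells. For Shmt1, MASH over Chow was 2.08 in immature neutrophil-like cells and 0.461 in germinal centre-like cells, where 1 cell held 13 of the UMIs in MASH and 21 in Chow. With the cell richest in the gene left out of each library, the directions stood, with 0.461 (0.224 to 0.922) for Shmt1 in germinal centre-like cells, and the interval for Psat1 in macrophage-like cells, 0.604 (0.293 to 1.21), included 1.

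Cells of clusters left unnamed were used in no comparison. For most of these clusters the dendritic-like list scored best and above the limit, but none of its markers was among their leading genes. The dendritic-like class thus leaves them out. In them Mthfd2 stood at 98.2 CPM in Phe-free, 135 CPM in MASH and 105 CPM in Chow. Among them a cluster of 87 cells, with Fscn1, H2-M2 and Il12b as its leading genes, held 320.1 CPM on 105 UMIs. Its best list was dendritic-like, with a mean log2 fold of 3.44.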

How the results depend on the processing

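No paired analysis was possible because each group had 1 library. Over 14 other settings, Phe-free over MASH in plasma-like cells ran from 1.30 to 1.52 for Phgdh, 1.44 to 2.69 for Psat1, 1.73 to 2.90 for Psph, 1.65 to 2.32 for Shmt2 and 1.31 to 1.84 for Mthfd2. The count of members 1.5-fold apart there was 5 with each cell weighted alike, 7 with each library clustered on its own, 5 with marker gates and 5 with parts weighted alike. For MASH over Chow it was 3 with each cell weighted alike, 2 with gates and 2 with no minimum. The median log2 ratio of MASH over Chow (-0.02) turned to 0.11 without immunoglobulin, 0.17 with median-of-ratios scaling, 0.01 with each cell weighted alike, 0.03 with each library clustered on its own and 0.10 without cycling cells and immunoglobulin, and the ratio for Mthfd1l to 1.26 with each cell weighted alike. The median log2 ratio of plasma-like over B-like cells was 0.28, -0.83 and -0.53 in Phe-free, MASH and Chow. Without immunoglobulin this median was 1.51, 0.52 and 0.69. It was 1.72, 0.74 and 0.88 with median-of-ratios scaling, 1.55, 0.73 and 0.66 without cycling cells and immunoglobulin, and -1.22 in MASH with each cell weighted alike. The ratio for Psph in MASH, not in log2, was 1.27 without immunoglobulin and 1.48 with median-of-ratios scaling. Without cycling cells and immunoglobulin it was 1.3. The median log2 ratio of germinal centre-like over B-like cells was 1.5, 1.42 and 1.51 in the same order. It was 0.47, 0.11 and 0.09 without cycling cells, and 0.46, 0.11 and 0.09 with immunoglobulin also left out. Without cycling cells the ratios there, not in log2, were 0.671 for Shmt2 and 0.64 for Mthfd2 in MASH. In Chow they were 0.636 for Shmt1 and 0.96 for Mthfd2. With immunoglobulin also left out these ratios were 0.67, 0.638, 0.636 and 0.96. Other values of the median log2 ratio there were 0.99 in Phe-free and 0.88 in MASH with each cell weighted alike. They were 0.97 in Phe-free and 1.12 in Chow with stricter filters. With each library clustered on its own they were 2.11 in MASH and 0.21 in Chow. Without the 1 in 20 cells richest in these genes the value was 1.15 in Phe-free. The cause of these changes was not tested. With 1 library per group, differences between animals, handling and groups cannot be told apart.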

Other observations

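Late erythroid-like cells were in no comparison, since Chow held 12. Their Mthfd1 level was 57.5 CPM in the 69 cells of Phe-free and 12.9 CPM in the 539 cells of MASH. Early erythroid-like cells held 208 to 234 CPM over the libraries. Progenitor-like cells held 157 CPM of Phgdh in Phe-free, on 85 UMIs in 29 cells, and MASH and Chow held 4 and 8 such cells.

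Plasma-like cells led by a heavy chain other than IgM numbered 41, 11 and 20 in Phe-free, MASH and Chow. Their Phgdh level was 125, 111 and 62.5 CPM, on 176, 48 and 43 UMIs.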
